A study of Mus musculus with 6 samples.

Results

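Levels of Gja1, Gjb2, Gjb5 and Gjb6, 4 connexin genes that are transcribed in stratified epithelium, were examined in 6 NT3 tumors. They were chosen by name, as the entries of the count table with those symbols, and each was found as 1 of the 23358 gene entries. NT3 is a transgene for a form of NF-κB-inducing kinase (NIK) that lacks the domain bound by TRAF3, its negative regulator, and it is silent until Cre removes a stop cassette at ROSA26. In the mouse lines studied here, spontaneous soft tissue tumors followed this activation, and RNA from whole tumors was sequenced.

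Each tumor came from a different female mouse and is named by its mouse number. The Osx-Cre;NT3 line gave tumors 13, 18 and 25, all on the trunk, with latencies of 150, 168 and 115 days. In these mice NT3, on a C57Bl/6J background, was combined with a Tet-OFF Cre under the promoter of Osterix, a factor of the bone-forming lineage, on a background mixed from C57Bl/6J and CD1, and doxycycline chow kept the Cre off until weaning. The FSP1-Cre;NT3 tumors were 27 and 36, which were perineal with latencies of 101 and 52 days, and 29, a trunk tumor with a latency of 72 days. Their Cre was driven by the S100a4 promoter, which is active in fibroblasts, on an FVB/n background, and no doxycycline treatment is described for them. Line, strain background, latency and, for 2 tumors, site therefore changed together and cannot be told apart. Every tumor carried NT3 and a Cre, and Cre-negative animals were not analysed here. The labels give the tumors as separate samples of a line, so p-values measure the spread between these tumors alone. The series' design text also gives a higher average RNA integrity for the FSP1-Cre;NT3 samples.

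Connexins are membrane proteins that assemble into hemichannels, and the hemichannels of neighbouring cells dock to form gap junctions, through which ions and small metabolites pass between cells. In stratified epithelium such as epidermis, several connexins are made together, each with its own distribution over the layers. Gja1 encodes Cx43, the most widespread connexin, which is found in the lower epidermal layers and also in dermal fibroblasts, vessels and many other tissues. Gjb2 and Gjb6 encode Cx26 and Cx30, which are scarce in normal hairy skin, are present in hair follicles and sweat glands, and rise in wounded or hyperproliferative epidermis. Mutations in their human counterparts cause hearing loss and inherited disorders of the skin. Gjb5 encodes an epidermal connexin of the differentiating layers.

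In the deposited table (mm10, GRCm38) Gja1 spanned chr10:56377300-56390419 on the plus strand, Gjb5 spanned chr4:127354809-127358164 on the minus strand, and Gjb2 and Gjb6 lay beside each other on the minus strand at chr14:57098602-57104702 and chr14:57123303-57133577. The gap between Gjb2 and Gjb6 was 18600 bases, and Gja3 was the next gene on the other side of Gjb2, 40656 bases away. As is typical of connexins, the coding sequence of each of the 4 genes was held in 1 exon in GENCODE M21, with 1146 coding bases in Gja1, 678 in Gjb2, 813 in Gjb5 and 783 in Gjb6.

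NIK drives RelB and p52 to κB sites, so the 250 bases before each RefSeq start site (GRCm38.p6) are shown here to set the promoters of the 4 genes side by side. They lie at chr10:56377050-56377299 for Gja1 (plus strand), chr14:57104703-57104952 for Gjb2, chr4:127358165-127358414 for Gjb5 and chr14:57133612-57133861 for Gjb6 (all 3 minus strand). Capitals mark a match to the κB consensus or to the AP-1 motif TGANTCA, searched on both strands, and each sequence is given in the direction of its gene.
Gja1: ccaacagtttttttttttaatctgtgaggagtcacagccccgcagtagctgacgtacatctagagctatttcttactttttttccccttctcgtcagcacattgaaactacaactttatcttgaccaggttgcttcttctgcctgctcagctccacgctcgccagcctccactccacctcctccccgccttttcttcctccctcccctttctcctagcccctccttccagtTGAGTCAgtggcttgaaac
Gjb2: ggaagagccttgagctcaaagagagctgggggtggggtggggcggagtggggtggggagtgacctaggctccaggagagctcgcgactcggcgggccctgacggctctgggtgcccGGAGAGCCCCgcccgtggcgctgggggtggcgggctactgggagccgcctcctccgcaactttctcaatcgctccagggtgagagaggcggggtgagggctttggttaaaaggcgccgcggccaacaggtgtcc
Gjb5: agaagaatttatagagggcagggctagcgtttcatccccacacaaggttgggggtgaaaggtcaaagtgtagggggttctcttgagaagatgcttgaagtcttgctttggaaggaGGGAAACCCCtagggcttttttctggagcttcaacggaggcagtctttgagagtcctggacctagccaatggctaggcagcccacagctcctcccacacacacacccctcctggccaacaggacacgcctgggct
Gjb6: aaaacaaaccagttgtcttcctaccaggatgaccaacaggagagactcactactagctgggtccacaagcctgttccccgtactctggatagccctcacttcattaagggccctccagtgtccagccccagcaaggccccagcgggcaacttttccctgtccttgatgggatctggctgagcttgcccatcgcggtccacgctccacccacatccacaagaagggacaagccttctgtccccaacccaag

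The Gjb2 stretch held 1 κB match, GGAGAGCCCC, 134 bases before the start, and the Gjb5 stretch held 1, GGGAAACCCC, 135 bases before the start. The Gja1 stretch had no κB match and 1 AP-1 match, TGAGTCA, 19 bases before the start, and the Gjb6 stretch had neither motif. Of 32851 RefSeq promoter stretches of the same length, 9.55% held the κB consensus and 6.75% the AP-1 motif. Among all connexins, 16 stretches of 12 genes were available, of which 4 held the κB consensus and 1 the AP-1 motif. The stretches also differed in base composition, from 69.2% G and C with 18 CpG in Gjb2 to 50% with 6 CpG in Gja1, and Gjb5 had the fewest CpG, with 3. A match is a description of these letters only.

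Total counts ran from 51824408 in tumor 13 to 163297772 in tumor 18. If each count stood for a separate fragment, the limit that a count of 0 allows would be 3 counts. This corresponds to from 0.0184 to 0.0579 CPM, which are counts scaled to a common library size. Every count was even, so intervals on counting error below treat each pair of counts as 1 fragment. Counted in fragments, the limit for a count of 0 is higher than these CPM values. Without molecular identifiers on the reads, these intervals and limits cover counting error alone. The defining genes of basal keratinocytes were found in every library, with Krt5 from 2591 to 6087 CPM and Krt14 from 1637 to 4105 CPM. For the skin development genes raised in its tumors, the paper proposes that skin over the tumors was likely cut out with them. It also holds an epithelial origin of the tumors to be unlikely. By its immunostaining, most tumor cells had αSMA, encoded by Acta2. Part of the tumor cells in both lines had the epithelial marker CK19, encoded by Krt19. Whether the keratin and connexin mRNA came from tumor cells or from skin was not tested. Tumor 36 stood apart from the other 5 in several lists of cell type markers. These lists include Krt19 and Acta2, so they do not tell tumor cells from other cells. In tumor 36 the 9 simple epithelium genes summed to 5035 CPM against 719 to 1311. Krt8 and Krt19 gave most of this sum, at 2249 and 1091 CPM. Cldn4 was lowest in tumor 36, and Krt7 and Krt18 were not highest there. Its 9 genes of smooth muscle and myoepithelium summed to 2898 CPM against 300.0 to 584, and its 12 hair follicle genes to 746 against 41.7 to 229. Its 8 basal keratinocyte genes had the lowest sum, 6077 against 10189 to 14950.5. Results that rest on tumor 36 are therefore given with and without it. In these bulk samples, fewer cells of a type and less RNA per cell cannot be told apart.

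Gja1 was the most abundant of the 4 genes and varied least. Its level in CPM, with library sizes scaled by TMM to put the bulk of genes at equal levels, was 124 in tumor 13, 165 in tumor 18, 190.1 in tumor 25, 182 in tumor 27, 136 in tumor 29 and 168 in tumor 36. The highest tumor, 25, and the lowest, 13, were of the same line and site, and the lines overlapped throughout. The mean was 161 ± 25.8 CPM (SD, n = 6 tumors), with a 1.53-fold range. Gja1 stood at position 1470 of 23358 entries by mean RPKM, a scale that allows for gene length, with a median of 41.9 RPKM. In tumor 36, the tumor with unusual cell type markers, its level was neither the highest nor the lowest.

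Gjb2, which encodes Cx26, differed 5.67-fold between tumors. Its level was 8.36 CPM in tumor 13, 25.2 in tumor 18, 14.02 in tumor 25, 10.9 in tumor 27, 14.2 in tumor 29 and 47.4 in tumor 36. Tumor 36 was 1.88-fold above the next, tumor 18, and the remaining 4 tumors, from both lines, ran from 8.36 to 14.2 CPM. The counting intervals (exact Poisson, 95%) of tumors 36 and 18 were 45.1 to 49.9 and 24.1 to 26.3 CPM, so that counting error does not span this gap. Over all tumors the mean was 20.0 ± 14.6 CPM, and without tumor 36 it was 14.5 ± 6.41 CPM (SD, n = 5) with a 3.01-fold range.

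Gjb5 followed another order. It was at 8.53 CPM in tumor 13, 2.99 in tumor 18, 4.45 in tumor 25, 4.48 in tumor 27, 12.9 in tumor 29 and 10.8 in tumor 36. Tumors 29, 36 and 13 were the high ones, and they came from both lines and both sites. The mean was 7.35 ± 3.98 CPM (SD, n = 6 tumors), the range was 4.30-fold, and tumor 36 did not set it.

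Gjb6, which encodes Cx30, was the lowest and the most variable of the 4. Its level was 1.99 CPM in tumor 13, 3.61 in tumor 18, 0.620 in tumor 25, 1.23 in tumor 27, 3.59 in tumor 29 and 6.91 in tumor 36. Tumor 36 was highest, as for Gjb2, and 1.91-fold above tumor 18, while tumor 25 was lowest with 22 pairs of counts, a counting interval of 0.388 to 0.938 CPM. The mean was 2.99 ± 2.27 CPM (SD, n = 6 tumors) with an 11.2-fold range, which fell to 5.83-fold without tumor 36. At position 12818 of 23358 entries by mean RPKM, Gjb6 had fewer than 1 RPKM on average, at 0.960 RPKM, but its counts, from 44 to 556, were above the limit for a count of 0 in every tumor.

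**Figure D1:**
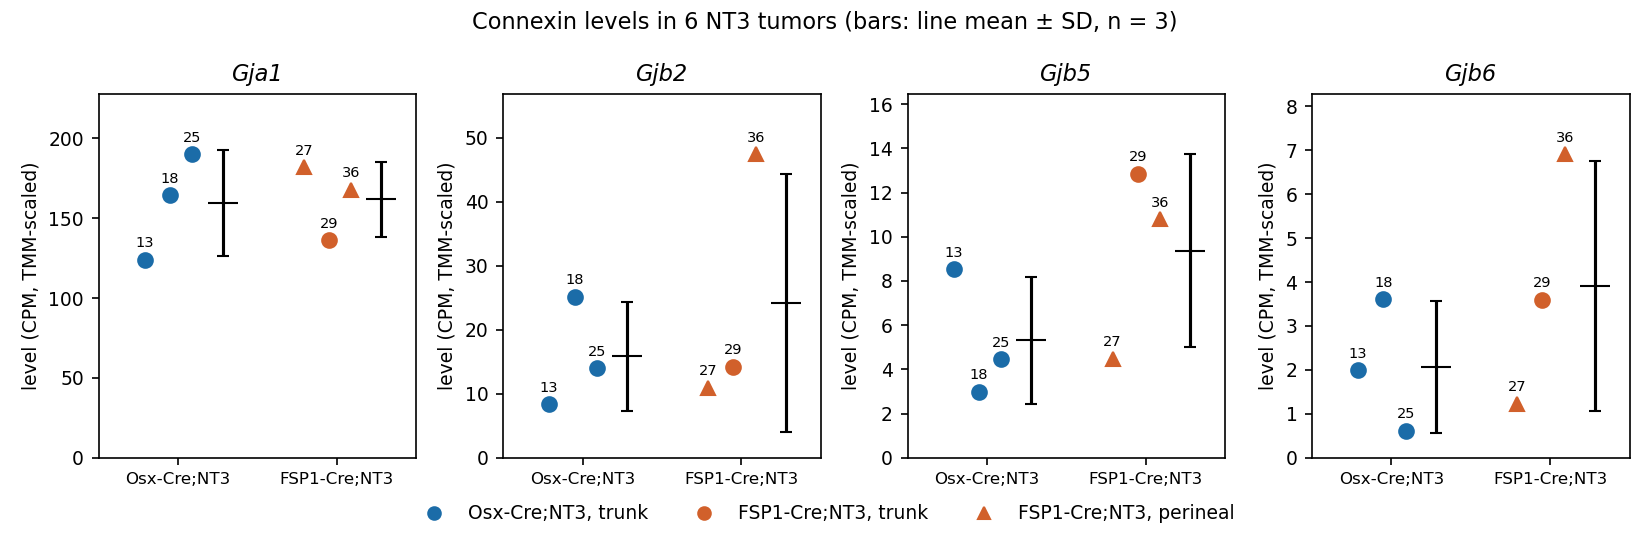
TMM-scaled CPM of Gja1, Gjb2, Gjb5 and Gjb6 in each tumor (points, numbered by mouse), with the mean and SD of each line as a bar (n = 3) and an axis from 0 in each panel. The lines overlap in all 4 panels, and tumor 36 is the highest for Gjb2 (47.4 CPM) and Gjb6 (6.91 CPM) but not for Gja1 or Gjb5.

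Per length, in RPKM, the order of the mean levels was Gja1, Gjb2, Gjb5, Gjb6. Gja1 was above each of the others in 6 of 6 tumors, and its mean log2 ratio to Gjb2 was 2.88 ± 0.85 (SD, n = 6), or 7.37-fold. Gjb2 and Gjb5 were neighbours whose levels did not separate: Gjb2 was the higher in 4 of 6 tumors, with a mean log2 ratio of 0.88 ± 1.19, and Gjb5 was the higher in tumors 13 and 29. Gjb2 exceeded Gjb6 in 6 of 6 tumors, by from 4.07-fold in tumor 29 to 23.3-fold in tumor 25. Gjb5 also exceeded Gjb6 in 6 of 6 tumors, with a mean log2 ratio of 2.04 ± 1.12, although in tumor 18 it did so by no more than 1.202-fold.

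The 4 genes made up a varying share of all connexin mRNA. Summed over the 20 connexins of the table, the level was 144 RPKM in tumor 13, 131 in tumor 18, 193 in tumor 25, 151 in tumor 27, 133 in tumor 29 and 127 in tumor 36. Gja1, Gjb2, Gjb5 and Gjb6 together held 25.7% of it in tumor 13, 38.6% in tumor 18, 29.4% in tumor 25, 38.8% in tumor 27, 35.3% in tumor 29 and 52.7% in tumor 36. Gja1 alone gave from 20.8% to 34.4%. Gjb2 held 12.5% in tumor 36 and from 1.81% to 6.05% in the others. The share of the 4 genes was highest in tumor 36, where the level of Gja4, described next, was also lowest, at 17.0 RPKM against 54.6 to 93.6 RPKM.

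Per length, the connexin with the highest mean level was Gja4, which encodes Cx37 and is known from arterial endothelium. Its level was 152 CPM in tumor 13, 117 in tumor 18, 187 in tumor 25, 107 in tumor 27, 114 in tumor 29 and 34.1 in tumor 36. In CPM it was above Gja1 in tumor 13 and below it in the other 5. It held from 38.5% to 48.7% of connexin RPKM in 5 tumors, each time more than Gja1, and 13.4% in tumor 36, where Gja1 held 34.4%, and its rank over all entries by mean RPKM, 1010, was above that of Gja1. The 8 endothelial markers summed to 375 CPM in tumor 36, within the 181 to 464 CPM of the others, and were not lowest where Gja4 was lowest.

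Gjb1, which encodes Cx32 of glandular and liver epithelium, was seen with 788 counts in tumor 36, or 12.3 CPM, and with 0, 16, 2, 0 and 2 counts in tumors 13, 18, 25, 27 and 29. Its 5.23% of connexin RPKM in tumor 36 came beside the high sum of simple epithelium genes there, and the part of other cell types in this was not tested. Gja5 and Gjc1, connexins of vessels and heart, were at 3.01 to 9.72 and 4.90 to 13.2 CPM. Gjc3, known from glia, reached 2.53 CPM. Gja3, Gja6, Gja10, Gjd2, Gjd3 and Gje1 were under 1 CPM in every tumor, and Gjd4 had no count.

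**Figure D2:**
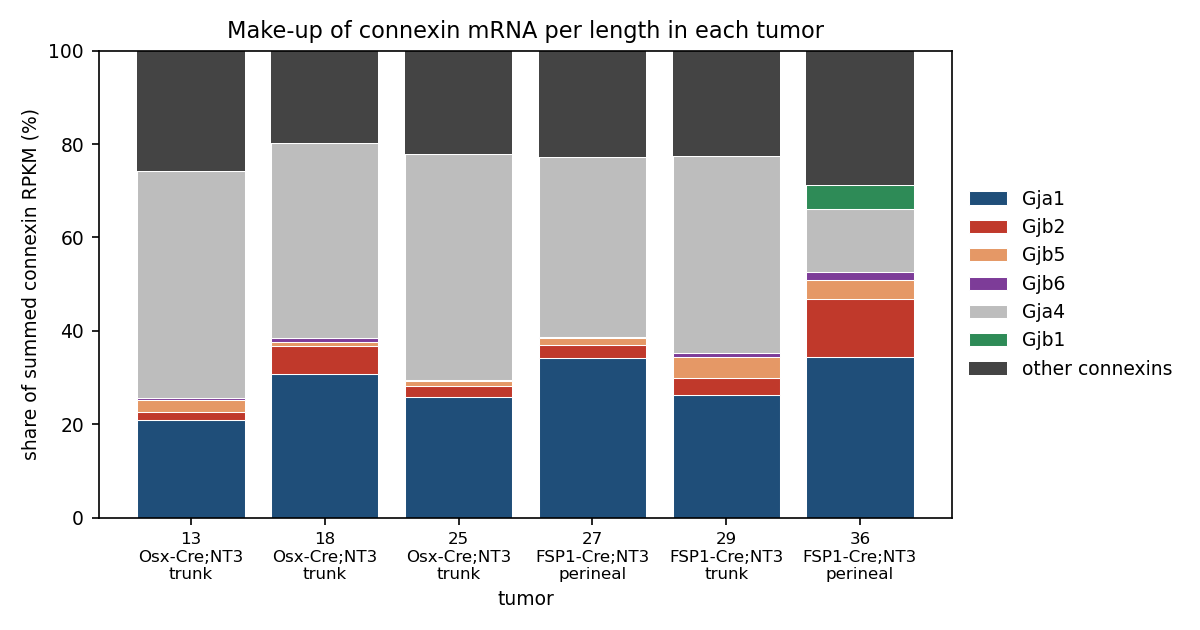
Share of the summed connexin RPKM held by each gene named in the key, and by all other connexins together, in each tumor, in percent, as stacked bars that reach 100. Gja1 and Gja4 together make up most of each bar except in tumor 36, where Gja4 holds 13.4% and Gjb2 12.5%.

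The first comparison asked whether the tumor lines differed in these connexins. Mean Gja1 was 160 ± 33.3 CPM in Osx-Cre;NT3 and 162 ± 23.5 CPM in FSP1-Cre;NT3 tumors (SD, n = 3 each). Gjb2 had 15.9 ± 8.55 and 24.2 ± 20.2 CPM, Gjb5 had 5.32 ± 2.87 and 9.37 ± 4.36 CPM, and Gjb6 had 2.07 ± 1.498 and 3.91 ± 2.85 CPM. All 3 beta connexins thus had a higher mean in the FSP1-Cre;NT3 tumors, but the lines overlapped for 4 of 4 genes. Over the 16415 genes tested, 17% had lines that did not overlap.

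None of the 4 genes passed an adjusted p of 0.05 between the lines in the quasi-likelihood test of edgeR, adjusted by Benjamini-Hochberg over all genes tested. No gene of the 16415 did (0%, smallest adjusted p 0.359), while 1770 (10.8%) had an unadjusted p under 0.05, none of the 4 genes among them. The log2 fold change of FSP1-Cre;NT3 over Osx-Cre;NT3 was 0.02 ± 0.23 (SE) for Gja1, with a 95% interval from -0.52 to 0.56. For Gjb2 it was 0.61 ± 0.65, with an interval from -0.94 to 2.16 and an adjusted p of 0.704 from the edgeR fit. That of Gjb5 was 0.82 ± 0.54 with an interval from -0.47 to 2.11 (adjusted p 0.535), and that of Gjb6 was 0.91 ± 0.81 with an interval from -1.02 to 2.85 (adjusted p 0.644). For Gja1 the interval of this fit, which leaves out site, excludes a 2-fold difference in either direction. The beta connexins could differ by more than 4-fold within theirs. With site as a covariate, the log2 fold change of Gja1 was -0.25 ± 0.35 (SE), so the exclusion is tied to the fit without site. Over the 4 genes the median log2 fold change was 0.71, beside 0.01 over all genes tested. DESeq2, the count model that the study used for its own comparisons, called 420 of 16098 genes (2.61%) and 0 of the 4, with adjusted p-values from 0.489 to 0.989.

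The direction for Gjb2 rested on tumor 36. Without it, the log2 fold change was -0.34, and among the trunk tumors alone, where FSP1-Cre;NT3 is represented by tumor 29 only, it was -0.17. Gjb5 and Gjb6 kept a higher mean in FSP1-Cre;NT3 tumors without any 1 tumor, with log2 fold changes from 0.50 to 1.33 and from 0.21 to 1.58. For Gja1 they ran from -0.13 to 0.11. Among the cell type markers, the summed 10 fibroblast genes separated the lines, at 5360 to 7023 CPM in Osx-Cre;NT3 and 12042 to 15444 CPM in FSP1-Cre;NT3 tumors. Of these genes 10 of 10 had a positive log2 fold change, and Dpt alone overlapped between the lines. The summed 8 endothelial genes did so too, at 181 to 313 and 351 to 464 CPM, and 7 of 8 had a positive log2 fold change. Taken singly, Pecam1 and Tek did not overlap, whereas Cdh5, Kdr, Emcn, Egfl7, Cldn5 and Esam did. Over all genes tested, 17% did not overlap. Positive log2 fold changes also held for 9 of 9 smooth muscle and myoepithelium genes and 12 of 12 hair follicle genes, whose sums overlapped. Both lists were highest in tumor 36. Without it, the FSP1-Cre;NT3 hair follicle sums were 75.1 and 48.5 CPM, within the 41.7 to 229 CPM of the Osx-Cre;NT3 tumors. By mean log2 CPM, the smooth muscle and myoepithelium list stayed higher in tumors 27 and 29, at 4.23 and 4.03 against 3.46 to 3.75. The log2 fold changes of these genes without tumor 36 are not given here. The part of any of these lists in the differences of the 4 connexins was not tested.

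The site of the tumor was compared next, with 2 perineal tumors against 4 trunk tumors, and both perineal tumors were FSP1-Cre;NT3. Gja1 averaged 175 CPM in the perineal and 154 in the trunk tumors, Gjb2 29.2 and 15.4, Gjb5 7.63 and 7.20, and Gjb6 4.07 and 2.45 CPM. The sites overlapped for 4 of 4 genes, while 19.6% of the same 16415 genes did not overlap between sites. Tumor 27, the other perineal tumor, was among the lower ones for Gjb2, Gjb5 and Gjb6, so that the perineal means of Gjb2 and Gjb6 reflected tumor 36.

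By edgeR's quasi-likelihood test, 0 of 16971 genes (0%) passed the adjusted threshold between the sites, with a smallest adjusted p of 0.263, and 1784 (10.5%) had an unadjusted p under 0.05, none of the 4 among them. The log2 fold change of perineal over trunk was 0.18 ± 0.24 (SE) for Gja1 with an interval from -0.39 to 0.75. It was 0.91 ± 0.60 for Gjb2, from -0.51 to 2.33. Gjb5 had 0.08 ± 0.65, from -1.45 to 1.60, and Gjb6 had 0.72 ± 0.85, from -1.28 to 2.72. The adjusted p-values from edgeR were 0.797, 0.590, 0.973 and 0.764. DESeq2 called 605 of 16881 genes (3.58%) and 0 of the 4, and the median of the 4 edgeR log2 fold changes was 0.45 beside -0.02 over all genes tested. Without tumor 36 the log2 fold change fell to -0.50 for Gjb2, -0.68 for Gjb5 and -0.999 for Gjb6, each with 1 perineal tumor left.

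**Figure D3:**
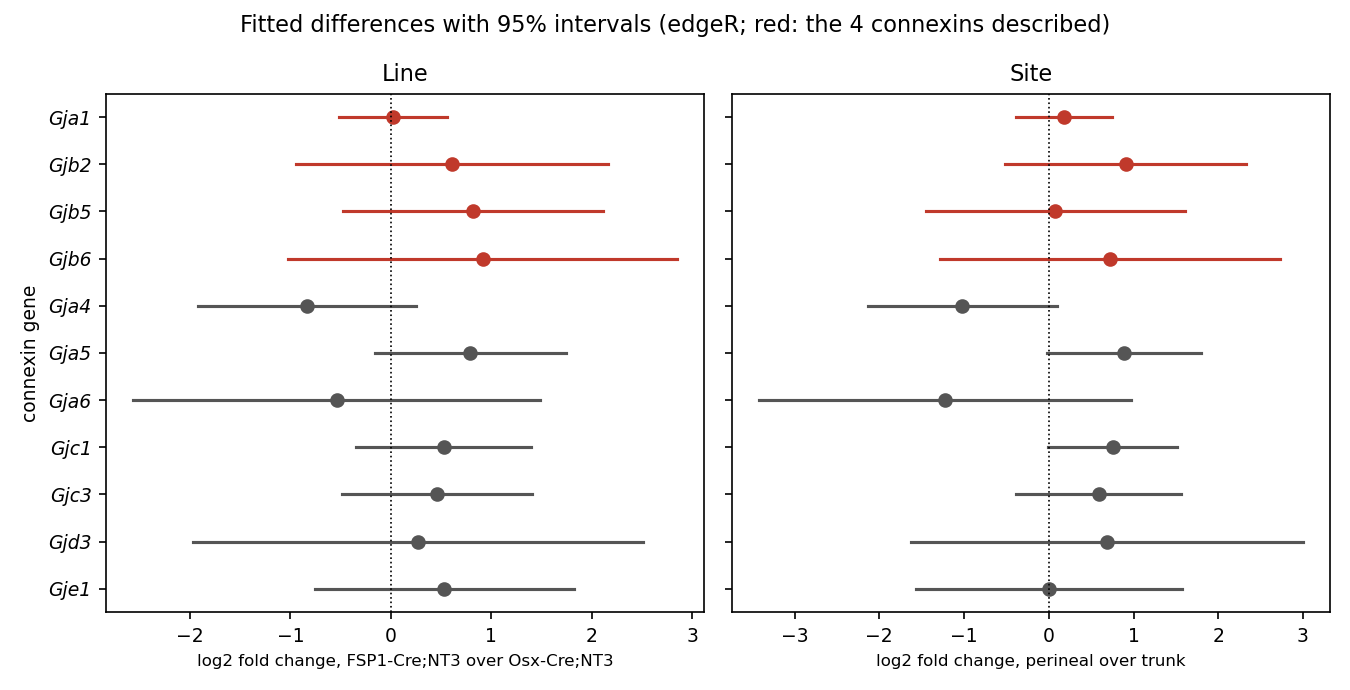
Log2 fold changes (edgeR, points) with 95% intervals (lines) of Gja1, Gjb2, Gjb5, Gjb6 and 7 other connexins tested in the line contrast, FSP1-Cre;NT3 over Osx-Cre;NT3 on the left and perineal over trunk on the right, with the first 4 in red. Every interval shown includes 0, and that of Gja1 is the narrowest of the 4, from -0.52 to 0.56 between the lines.

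The rest of the gap junction machinery gave no call either. Of 16 other connexins in the table, 10 were tested between the lines and 11 between the sites, and 0 passed in either comparison by edgeR or by DESeq2 (0 with an unadjusted p under 0.05 in edgeR). Between the lines, 1 of the 10 did not overlap, beside 17% of all genes tested. This was Gja4, with a log2 fold change of -0.83 (edgeR, adjusted p 0.481). Between the sites, 4 of the same 10 did not overlap, beside 19.6%, with Gja4 lower and Gja5, Gjc1 and Gjc3 higher in the perineal tumors. Of the pannexins, which form related membrane channels, Panx1 ran from 34.4 to 49.2 CPM and was higher in each Osx-Cre;NT3 tumor than in any FSP1-Cre;NT3 tumor, with a log2 fold change of -0.29 (edgeR, adjusted p 0.517). Panx3 was at 3.31 CPM in tumor 36 and at no more than 0.414 CPM in the others. The 12 partners of connexins, which scaffold them, phosphorylate them, mark them for removal or hold the adjacent adherens junction, also had 0 calls by edgeR or DESeq2, and in edgeR 1 had an unadjusted p under 0.05 between the lines and 3 between the sites. The most abundant of them was Nedd4, a ubiquitin ligase that binds Cx43, with 709 to 1561 CPM, and the least abundant was Nov, a secreted partner of Cx43, with 1.70 to 14.7 CPM.

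The levels were then set against the basal keratinocyte genes of the same tumor, since the levels of these genes differed between tumors. The mean log2 CPM of the 8 basal genes was 8.44 in tumor 18 and 8.67 in tumor 36 and from 9.37 to 9.84 in the other 4. On the log2 scale, Gjb2 less the mean of the 8 basal genes was -6.30 in tumor 13, -3.78 in tumor 18, -6.03 in tumor 25, -5.93 in tumor 27, -5.61 in tumor 29 and -3.10 in tumor 36. Tumors 18 and 36, which had the most Gjb2 and the lowest basal means, stood above the other 4, which lay within 1 log2 unit of each other. The basal genes were not alike in tumor 18. Col17a1, Itga6, Itgb4 and Lamb3 were each lowest there, whereas Krt14 and Krt15, at 3500 and 2804 CPM, were not low. The place of tumor 18 may thus depend on the genes taken as reference. Gjb6 ran from -10.48 in tumor 25 to -5.88 in tumor 36, with tumor 18 second at -6.57. Gjb5 ran from -7.68 in tumor 25 to -5.24 in tumor 36, and Gja1 from -2.41 in tumor 13 to -1.07 in tumor 18. Between the lines, the mean of FSP1-Cre;NT3 less that of Osx-Cre;NT3 was 0.08 for Gja1, 0.49 for Gjb2, 0.86 for Gjb5 and 0.96 for Gjb6, each smaller than the larger of the SDs within the lines.

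**Figure D4:**
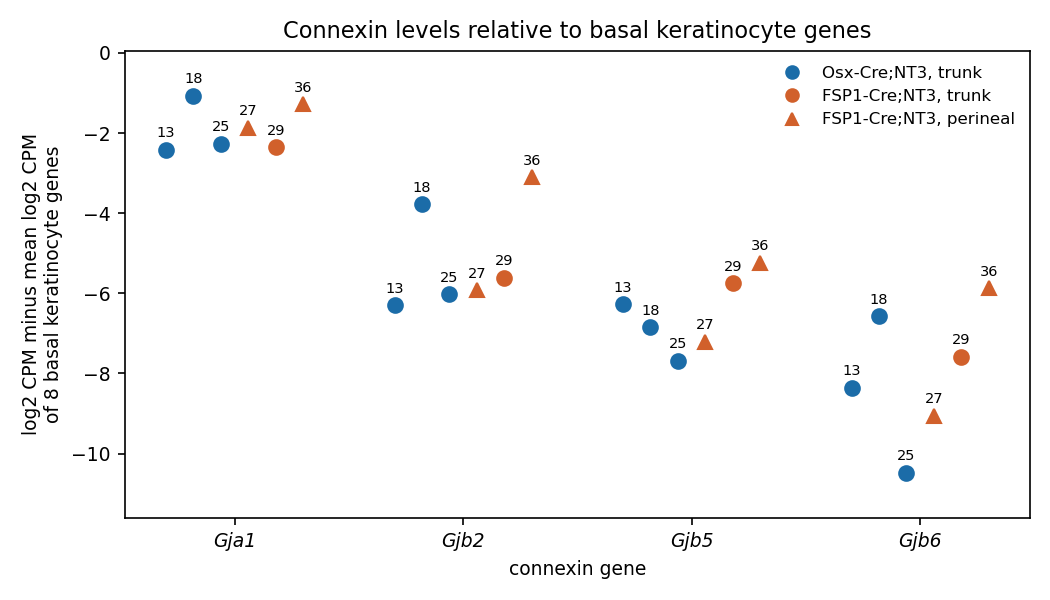
Log2 level of each gene less the mean log2 level of 8 basal keratinocyte genes in the same tumor (prior count 2), with 1 point per tumor. Tumors 18 and 36 are highest for Gja1, Gjb2 and Gjb6, whereas tumors 36, 29 and 13 are highest for Gjb5.

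Among the 4 genes, the patterns over tumors were not alike. Gjb2 and Gjb6, the chromosomal neighbours, had a Pearson r of 0.69 and a Spearman rho of 0.77 over log2 CPM in the 6 tumors, and r was 0.38 without tumor 36. Gja1 and Gjb5 had r = -0.60 and rho = -0.43, and r was -0.75 without tumor 36. Gjb2 and Gjb5 had r = 0.07, or -0.54 without tumor 36. These values are descriptions of 6 tumors that differ in line, site and library depth, and no test was made of them.

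The pattern of Gjb5 over the tumors was most like that of a few genes that included keratins of the differentiating layers. Among the 12821 genes compared, the 5 with the highest r to Gjb5 were Hoxb9, Tspyl3, Krt1, Ndufa4l2 and Krt10, and 14 genes had r above 0.9. How many genes would pass 0.9 by chance with 6 tumors was not worked out. Such counts, here and below, therefore do not mark a gene out. Krt1 and Krt10 form the keratin pair of suprabasal epidermis, and their r values were 0.94 and 0.93, or 0.93 and 0.92 without tumor 36. Krt1 was at 127 CPM in tumor 13, 131 in tumor 29 and 352 in tumor 36, and at 2.97, 5.86 and 22.3 CPM in tumors 18, 25 and 27. Krt10 was at 186, 139 and 278 CPM in tumors 13, 29 and 36 and at 2.55, 5.15 and 22.3 CPM in the rest. The 3 tumors with the most Gjb5 were the 3 with the most of both keratins, although Gjb5 itself spanned 4.30-fold and Krt1 118-fold. With the mean of the 11 suprabasal genes in the table Gjb5 had r = 0.86 and rho = 0.83, and 10 of those 11 genes had a positive r with Gjb5, a count that was also 10 of 11 for Gjb2 and for Gjb6. The same mean had r = -0.49 with Gja1, 0.36 with Gjb2 and 0.67 with Gjb6. Without tumor 36 these were -0.92, -0.65 and 0.39, and that of Gjb5 was 0.90. Krt1 and Krt10, picked above for their r with Gjb5, are on the suprabasal list. Neither the list value of Gjb5 nor the shared order of tumors is therefore separate evidence. With the mean of 12 activated keratinocyte genes, Gjb5 had r = 0.71, or 0.79 without tumor 36. For Gjb6 it was 0.70, or 0.38, for Gjb2 0.54, or -0.70, and for Gja1 -0.23, or -0.82, so a high r with this list was not particular to Gjb5. The activated mean was highest in tumor 36, at 5.83 log2 CPM against 1.71 to 3.46. The summed CPM of the same genes, led by Krt17, was not, at 2105 against 2080 to 3682.

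**Figure D5:**
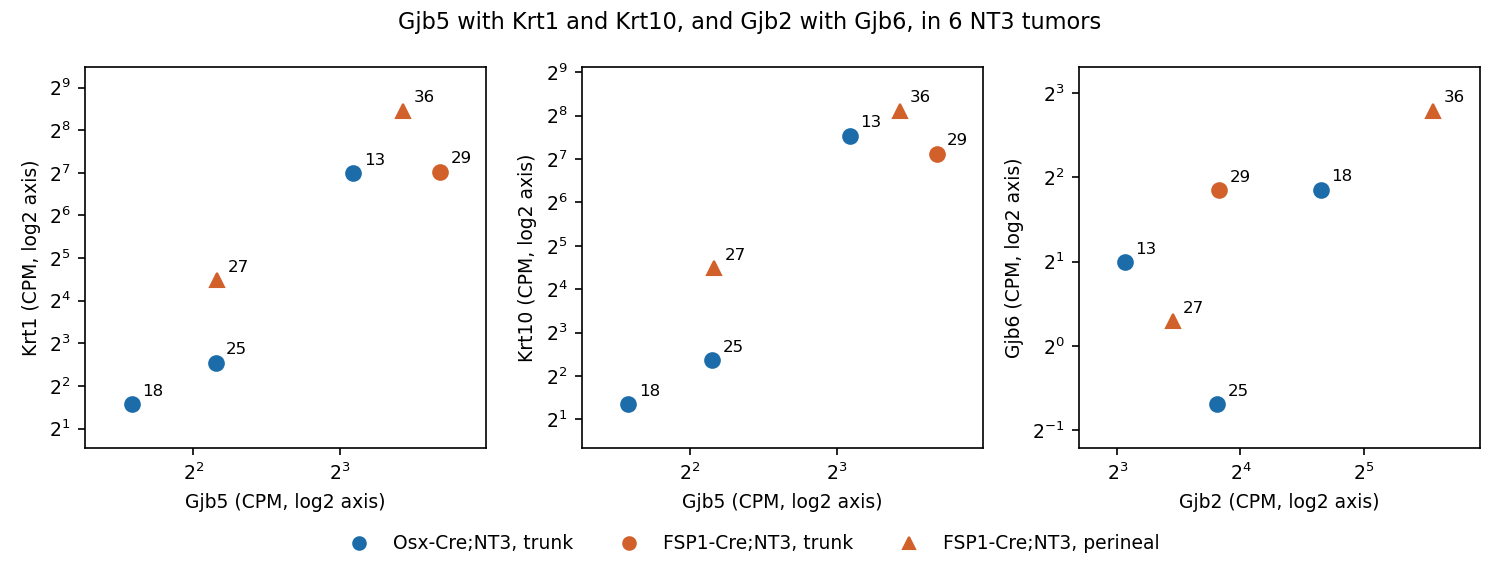
CPM of Krt1 and of Krt10 against Gjb5, and of Gjb6 against Gjb2, on log2 axes with 1 numbered point per tumor. Tumors 13, 29 and 36 lie at the upper right in the Gjb5 panels, and tumor 36 is highest on both axes in the Gjb2 and Gjb6 panel.

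Gjb2 was closest to Napepld, Pgcp, Unc13b, Entpd8 and Siae, with r from 0.97 to 0.98, and 81 genes exceeded 0.9. Without tumor 36 these r values were from 0.91 to 0.95. Its r with the simple epithelium list was 0.86, or 0.53 without tumor 36, and with the hair follicle list 0.83, or 0.55. The 5 genes closest to Gjb6 included Tmem9, Tmem218, Gstk1 and Nupr1, with r from 0.97 to 0.99, and 83 genes exceeded 0.9. Gja1 was closest to Olfr1033, March7, Sepsecs, Senp7 and Col12a1, a fibril-associated collagen, with r from 0.95 to 0.98, and 31 genes exceeded 0.9. Its r with the fibroblast list was -0.17 and with the basal keratinocyte list 0.01. With the hair follicle list it was 0.69, or 0.91 without tumor 36, and 11 of 12 of those genes had a positive r with it.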

How the data were processed

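Total RNA of 6 whole tumors was sequenced, and the authors trimmed and aligned the reads to mm10 and counted them per gene. The paper names HISAT2 (Galaxy version 2.1.0) and featureCounts, whereas the submitters' processing notes name bcl2fastq, TopHat2 2.0.6 and HTSeq, so the tools behind the table are uncertain. The annotation and strandedness are not given in the sources used here. The authors deposited raw counts per gene without normalization, and every count is even. They also deposited RPKM values, which scale counts by gene length and by library totals of which the gene counts make up 77.2% to 81.5%. RPKM was used only to compare genes of different length.

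Levels are TMM-scaled CPM computed from the counts. Lines and sites were compared with edgeR 4.0.16 (R 4.3.3, filterByExpr, TMM, glmQLFit, glmQLFTest, no covariate) and Benjamini-Hochberg adjustment over all genes tested, at 0.05, without the authors' own comparisons. The test was run on simulated counts first. DESeq2 1.42.0, other scalings, filters, covariates, halved counts and leaving out each tumor were alternatives. Levels relative to basal genes and correlations used log2 CPM with a prior count of 2. Named genes were the 4 connexins, the other connexins and pannexins, the partner list's highest and lowest genes, and, per connexin, the 5 genes with the highest r among those tested with a mean of at least 1 log2 CPM. Some genes that this rule names are not reported here. Of 138 genes on the lists, 137 were in the table. The members and the gene lists were chosen with earlier results of these data known. Promoter sequences are from RefSeq (GRCm38.p6), where all 4 genes were matched, and exon structures from GENCODE M21. Total counts per tumor ran from 51824408 to 163297772.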

Additional observations from a re-analysis of the deposited data

Results flagged for a closer look

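Levels of connexins and pannexins with at least 1 CPM in any tumor were searched for a tumor that lay far from the others, over all 6 tumors and over the 4 trunk tumors. A tumor was singled out when its gap to the nearest other, divided by the whole range, exceeded Dixon's critical value. Of 28 groups examined, 2 were singled out, where chance gives about 1 in 20, or 1.4. Neither was one of Gja1, Gjb2, Gjb5 and Gjb6. In tumor 36, Gja4 was low, at 5.09 log2 CPM against 6.74 in the nearest tumor, and the gap took 0.671 of the range. In the same tumor Gjb1 was high, at 3.63 log2 CPM against -2.96 in the nearest tumor, and the gap took 0.735 of the range. Gjb1 reached 1 CPM in tumor 36 alone, as did Panx3, so each entered the search only through its level there. The chance rate does not hold for such genes, and the search is no evidence on Gjb1. Tumor 36 also had the highest sums of simple epithelium and smooth muscle genes. The part of other cell types in the Gja4 and Gjb1 values was not tested.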

How the results depend on the processing

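No paired analysis was possible because the lines share no mouse number. Between the lines, edgeR called 0 genes under each of its alternatives, without any 1 tumor included, while DESeq2 called 420. Between the sites, edgeR called from 0 to 567 genes without 1 tumor, with 567 without tumor 27 and 2 without tumor 25, and DESeq2 called 605. None of the 4 connexins was called in any fit. Between the lines, the log2 fold change of Gja1 turned to -0.25 with site as a covariate, -0.23 in trunk tumors alone, -0.13 without tumor 13, -0.09 without tumor 27 and -0.0049 without tumor 36, with up to 0.11 without tumor 25. That of Gjb2 turned to -0.20, -0.17 and, without tumor 36, -0.34, with up to 1.10 without tumor 18. Between the sites, Gjb5 turned to -0.77 with line as a covariate and -0.77 in FSP1-Cre;NT3 tumors alone, and to -0.18, -0.11 and -0.68 without tumors 18, 25 and 36, with up to 0.56 without tumor 27. Without tumor 36, Gjb2 was at -0.50 and Gjb6 at -0.999, and without tumor 27 they were highest, at 1.57 and 1.44. Relative to the basal keratinocyte genes, the difference between the lines ran without 1 tumor from -0.19 to 0.51 for Gja1, -0.40 to 1.28 for Gjb2, 0.45 to 1.43 for Gjb5 and -0.04 to 1.91 for Gjb6. With Krt5 and Krt14 alone as the reference it was 0.41, 0.82, 1.195 and 1.29 for the 4 genes in that order. The cause of these changes was not tested. The number of tumors limits the precision. With 1 perineal tumor left, that tumor is assumed to vary like the others.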
